A study of Mus musculus with 6 samples.

Results

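Transcripts of 10 genes of the oxygen-sensing pathway were followed in mouse prostate. Hif1a and Epas1 encode the oxygen-regulated α subunits of the hypoxia-inducible factors (HIF), Egln1 and Egln3 encode prolyl hydroxylases, and Bnip3, Ddit4, Ankrd37, Car9, Adm and Vegfa are known HIF targets outside the glycolytic pathway. The genes were chosen by symbol, and all 10 were found among the 24091 genes of the count table. RNA sequencing covered 6 libraries in 3 groups of 2. The first group (12Q) was prostate tumors of mice whose humanised allele has 12 glutamines in its polyglutamine tract. The second (48Q) was prostate tumors of mice with 48 glutamines in that tract. Both tumor genotypes also carried Ctnnb1(Ex3)L/wt, 1 allele of the β-catenin gene with a conditional exon 3, and PBCre-4, a transgene that expresses Cre recombinase from the probasin promoter in prostate epithelium. The third group (WT) was normal prostate of wild type mice. The alleles were not carried by any group without tumors, so the effects of the tumor and of the alleles cannot be told apart in a comparison with WT. The labels give no ages and do not tell whether the replicates of a group are different mice. A p-value here therefore reflects the spread of these libraries alone, and that spread may be technical.

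In well-oxygenated cells the prolyl hydroxylases use oxygen to modify the HIF α subunits, and the modified subunits are bound by the von Hippel-Lindau protein and destroyed. When oxygen falls, the α subunits accumulate, pair with the β subunit ARNT and bind DNA at a short core sequence near genes of glucose metabolism, pH control, mitochondrial turnover and vessel growth. Egln3 and, to a lesser degree, Egln1 are themselves HIF targets, which closes a feedback loop, and the α subunits are regulated mainly as proteins, which RNA counts do not measure.

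Libraries held 26416181 to 28559546 counts. Levels are given as CPM, the usual unit scaled for depth, with library totals adjusted by the TMM method, and 3 counts corresponded to 0.0856 to 0.156 CPM. A single gene, 9530053A07Rik, took 17.4% and 22.8% of the WT counts. Scaled by library totals alone, the median log2 fold change over all tested genes was 0.485 for 12Q over WT (TMM -0.0129), 0.709 for 48Q over WT (TMM 0.0243) and -0.185 for 12Q over 48Q (TMM 0.00204). All 10 genes were among the 15050 that passed the filter on low counts, and a gene is said to have passed the test, or to be called, when the adjusted p of edgeR's quasi-likelihood F test over these genes was under 0.05. The sources used here do not give the strand setting or the annotation of the counting. For that reason the values of Hif1a, Bnip3, Ankrd37 and Car9, whose exons overlap another gene of the GENCODE M21 annotation, are uncertain. Among these, only Ankrd37 overlaps genes whose symbols are in the count table (Ufsp2 and Lrp2bp). Hif1a also overlaps a gene on its own strand, which no strand setting would separate. Tissue RNA of this kind cannot tell fewer cells of a type from less RNA per cell.

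4 of the 10 genes rose in 12Q tumors against WT (11.2% of all tested genes were called higher), and neither HIF subunit passed the test. Egln3 rose 66.7-fold over WT, Ankrd37 6.78-fold, Adm 5.27-fold and Bnip3 4.40-fold, whereas the Hif1a and Epas1 levels overlapped those of WT. Without 12Q replicate 2 the Egln3 fold was 15.2, and the Adm call was lost in 6 of 12 alternatives, 5 of them fits without 1 library. In 48Q tumors none of the 10 genes passed the test against WT, where only 5.18% of all tested genes were called. Egln3 and Bnip3 also passed in 12Q against 48Q tumors, at 35.7-fold and 5.79-fold higher (1.01% of all tested genes were called higher there). The 12Q libraries differed from each other, and Car9, a classical hypoxia marker, was high in only 1 of them.

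**Figure D1:**
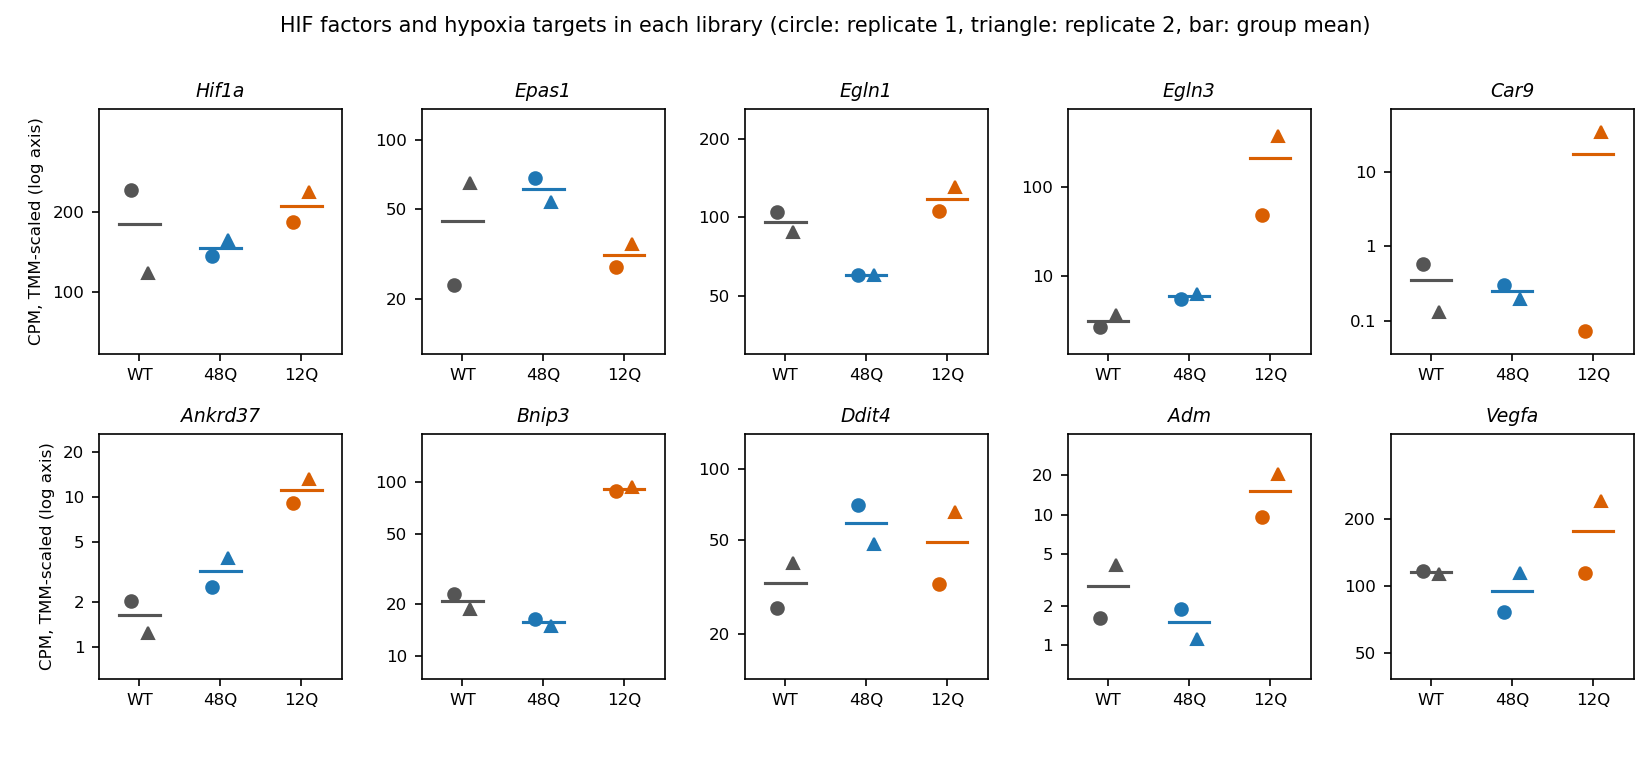
Levels of the 10 genes in CPM (TMM-scaled, log axis, 1 panel per gene) in WT, 48Q and 12Q libraries, with circles for replicate 1, triangles for replicate 2 and bars for the group mean. Bnip3 stood at 88.3 and 93.6 CPM in 12Q and at 14.9 to 22.7 in the other libraries, while Car9 was at 34.1 CPM in 12Q replicate 2 and at most 0.574 in the others.

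The bases before the start sites of the genes called higher in 12Q, and of Car9, are shown because HIF binds a short core there in many targets. Promoter windows of 300 bases (250 before to 50 after the start) came from RefSeq on GRCm38.p6, the mouse assembly of which mm10 is the browser name. Windows were held for 9 of the 10 genes, with 2 for Vegfa and none for Epas1. Each was searched on both strands for ACGTG and GCGTG, the HIF core. ACGTG on both strands also makes up the E-box CACGTG, so its strands count as separate matches. In the sequences below, read 5′ to 3′ on the gene's own strand and ending at the base before the start, capitals mark every match.
Egln3: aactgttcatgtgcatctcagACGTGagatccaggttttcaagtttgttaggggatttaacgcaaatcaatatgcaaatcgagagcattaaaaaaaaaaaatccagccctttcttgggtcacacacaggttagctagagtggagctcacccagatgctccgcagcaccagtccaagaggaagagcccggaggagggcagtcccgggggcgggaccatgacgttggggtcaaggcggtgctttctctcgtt
Bnip3: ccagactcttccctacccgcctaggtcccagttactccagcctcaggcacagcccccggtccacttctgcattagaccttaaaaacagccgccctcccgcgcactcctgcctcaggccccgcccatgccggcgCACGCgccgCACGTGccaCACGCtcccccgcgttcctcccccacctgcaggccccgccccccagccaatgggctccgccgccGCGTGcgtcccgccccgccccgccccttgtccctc
Ankrd37: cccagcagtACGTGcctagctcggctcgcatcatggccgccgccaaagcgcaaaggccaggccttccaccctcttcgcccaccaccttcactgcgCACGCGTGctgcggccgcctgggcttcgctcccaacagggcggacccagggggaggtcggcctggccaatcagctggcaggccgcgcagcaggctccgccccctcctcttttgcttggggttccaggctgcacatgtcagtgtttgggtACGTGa
Adm: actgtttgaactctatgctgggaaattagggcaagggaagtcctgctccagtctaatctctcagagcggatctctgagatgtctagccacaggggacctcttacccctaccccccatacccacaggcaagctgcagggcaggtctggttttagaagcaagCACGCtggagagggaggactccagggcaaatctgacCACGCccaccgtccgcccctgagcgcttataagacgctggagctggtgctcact
Car9: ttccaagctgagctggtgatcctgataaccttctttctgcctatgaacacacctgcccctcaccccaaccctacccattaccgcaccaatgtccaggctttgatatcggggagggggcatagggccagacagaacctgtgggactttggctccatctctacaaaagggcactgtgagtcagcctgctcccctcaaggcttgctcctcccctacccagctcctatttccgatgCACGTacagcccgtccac
The Egln3 stretch lies at chr12:54203875-54204124 on the minus strand and holds 1 match, 229 bases before the start. The Bnip3 stretch (chr7:138909507-138909756, minus strand) holds 5 matches, of which 2 are the strands of 1 CACGTG that begins 108 bases before the start. The Ankrd37 stretch (chr8:45999851-46000100, minus strand) holds 4 matches, 1 of them only 6 bases before the start. The Adm stretch (chr7:110627407-110627656, plus strand) holds 2 matches of GCGTG, both on the opposite strand, and the Car9 stretch (chr4:43506776-43507025, plus strand) holds 1 match, 18 bases before the start on the opposite strand. Hif1a, Egln1, Ddit4 and the first Vegfa window also held matches (3, 2, 2 and 2), and the second Vegfa window held 0. The start of that second window (46032377) is the 5′ end of Vegfa in the count table. The start of the first (46025163) lies inside the gene, as does that of the Hif1a window (73907867, with the table's Hif1a beginning at 73901324). In all, 9 of the 10 windows held a match. The share was 43.8% among all 32851 RefSeq windows of this length and 63.4% among the 14579 windows whose GC content lay within the range of these 10, from 54.7% to 86%. A match here is a description of the letters and was not tied to the expression values.

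Hif1a (mm10, chromosome 12, 73901324 to 73947554, plus strand) encodes HIF-1α. It was at 183 and 237 CPM in the 12Q libraries, 136 and 156.5 in 48Q, compared with 242 and 118 in WT. The WT libraries were the highest and the lowest of the 6, and both tumor groups lay between them. Hif1a did not pass in 12Q against WT (log2 fold change 0.22, 95% interval -0.68 to 1.12, edgeR adjusted p = 0.694), in 48Q against WT (-0.30, -1.20 to 0.61, edgeR adjusted p = 0.66) or in 12Q against 48Q (0.52, -0.39 to 1.42, edgeR adjusted p = 0.408). Without WT replicate 2 the first difference turned to -0.21, and without WT replicate 1 the second turned to 0.31.

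Epas1 (chromosome 17, 86753864 to 86833410, plus strand) encodes HIF-2α, which is prominent in endothelium and some epithelia. It was at 27.6 and 34.7 CPM in 12Q, 68.5 and 53.3 in 48Q, compared with 22.9 and 64.9 in WT. Both 12Q libraries lay below both 48Q libraries, and the WT libraries spanned nearly the whole range. The log2 difference of 12Q from 48Q was -0.97 (95% interval -2.13 to 0.20, edgeR adjusted p = 0.254), the only one of the 10 genes with 12Q wholly below 48Q. Against WT it was -0.50 in 12Q (edgeR adjusted p = 0.484) and 0.47 in 48Q (edgeR adjusted p = 0.576), and the signs turned to 0.44 without WT replicate 2 and to -0.09 without WT replicate 1.

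Egln1 (chromosome 8, 124908587 to 124949254, minus strand) encodes PHD2, the main HIF prolyl hydroxylase in most tissues. Its levels were 106 and 130.5 CPM in 12Q, 59.8 and 59.8 in 48Q, compared with 105 and 88.03 in WT. The 48Q libraries were the lowest and nearly equal, and the lower 12Q library stood just above the higher WT library. In 12Q against 48Q the log2 fold change was 0.98 (SE 0.22, 95% interval 0.45 to 1.52), which missed the threshold (edgeR adjusted p = 0.0612), although the DESeq2 Wald test called it (DESeq2 adjusted p = 0.00601). From WT to 48Q the difference was -0.69 (95% interval -1.22 to -0.15, edgeR adjusted p = 0.122), a difference that vanished to 0.01 with library totals in place of TMM. In 12Q against WT it was 0.29 (edgeR adjusted p = 0.369), and with library totals it passed (edgeR adjusted p = 0.0395).

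Egln3 (chromosome 12, 54178981 to 54203874, minus strand) encodes PHD3, the hydroxylase that hypoxia induces most strongly in many cells. It was at 48.4 and 379 CPM in the 12Q libraries, 5.63 and 6.33 in 48Q, compared with 2.71 and 3.67 in WT. All 4 tumor libraries were above both WT libraries, the 48Q libraries narrowly and the 12Q libraries widely. The 12Q mean was 213.5 ± 233.5 CPM, the 48Q mean 5.98 ± 0.495 and the WT mean 3.19 ± 0.677 (SD, n = 2). Egln3 rose in 12Q against WT by 6.06 on the log2 scale (SE 1.02, 95% interval 3.61 to 8.51, edgeR adjusted p = 0.012) and against 48Q by 5.16 (SE 0.96, 2.83 to 7.49, edgeR adjusted p = 0.0437). The log2 difference of 48Q from WT was 0.90 (-1.17 to 2.97, edgeR adjusted p = 0.549). The size of the increase depended on 12Q replicate 2: without it Egln3 was still called, at 15.2-fold over WT and 8.16-fold over 48Q, and without 12Q replicate 1 the folds were 122 and 64.5. The call against WT was lost without WT replicate 1 (edgeR adjusted p = 0.0712) or replicate 2 (0.0657), and that against 48Q without 48Q replicate 1 (0.201) or 2 (0.146), without WT replicate 1 (0.066) or 2 (0.0661), with library totals (0.0605) and in the fit of only the tumor libraries (0.064).

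Bnip3 (chromosome 7, 138890836 to 138909506, minus strand) encodes an outer mitochondrial membrane protein that marks mitochondria for autophagy. It was at 88.3 and 93.6 CPM in 12Q, 16.5 and 14.9 in 48Q, compared with 22.7 and 18.6 in WT. The 12Q libraries were nearly equal and well above the others, and the 48Q libraries lay below the WT libraries. The means were 90.9 ± 3.73, 15.7 ± 1.08 and 20.7 ± 2.92 CPM (SD, n = 2). Bnip3 rose in 12Q against WT by 2.14 on the log2 scale (SE 0.23, 95% interval 1.58 to 2.70, edgeR adjusted p = 0.0046) and against 48Q by 2.53 (SE 0.24, 1.96 to 3.10, edgeR adjusted p = 0.0157). Against WT it passed in each of the 12 alternatives (adjusted p from 6.53e-12 to 0.0194), the only one of the 10 genes to do so, and against 48Q it missed without 48Q replicate 1 (edgeR adjusted p = 0.0873) or replicate 2 (0.0656). The log2 difference of 48Q from WT was -0.40 (-0.94 to 0.15, edgeR adjusted p = 0.321), which turned to 0.30 with library totals.

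Ddit4 (chromosome 10, 59949675 to 59951770, minus strand) encodes REDD1, a stress-induced inhibitor of the growth kinase complex mTORC1. It was at 32.5 and 65.8 CPM in 12Q, 70.3 and 48.3 in 48Q, compared with 25.8 and 39.9 in WT. The tumor groups overlapped each other, and the only separation was of 48Q above WT. None of its differences passed: 0.58 in 12Q against WT (95% interval -0.43 to 1.59, edgeR adjusted p = 0.35), 0.85 in 48Q against WT (-0.16 to 1.86, edgeR adjusted p = 0.262) and -0.27 in 12Q against 48Q (-1.27 to 0.73, edgeR adjusted p = 0.705). Ddit4 thus did not show the 12Q-high pattern of Egln3 and Bnip3, and without 12Q replicate 2 its log2 difference from WT was -0.01.

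Ankrd37 (chromosome 8, 45996908 to 45999850, minus strand), a small ankyrin repeat protein gene known mainly as a HIF-1 target, was at 9.10 and 13.1 CPM in 12Q, 2.53 and 3.94 in 48Q, compared with 2.03 and 1.24 in WT. The 3 groups did not overlap, with 12Q highest and WT lowest. The means were 11.1 ± 2.82, 3.23 ± 0.995 and 1.64 ± 0.563 CPM (SD, n = 2). Ankrd37 rose in 12Q against WT by 2.76 on the log2 scale (SE 0.52, 95% interval 1.499 to 4.03, edgeR adjusted p = 0.0167). It missed the threshold in 12Q against 48Q (1.78, 0.58 to 2.98, edgeR adjusted p = 0.0932), where the DESeq2 Wald test called it (DESeq2 adjusted p = 0.00822), and in 48Q against WT (0.98, -0.23 to 2.19, edgeR adjusted p = 0.276). The call against WT was lost without 12Q replicate 2 (edgeR adjusted p = 0.0551) or WT replicate 2 (0.0523).

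Car9 (chromosome 4, 43507026 to 43513725, plus strand) encodes carbonic anhydrase IX, a membrane enzyme that acidifies the outside of hypoxic tumor cells. Its counts were 2 and 1101 for 12Q (0.074 and 34.1 CPM), 10 and 7 for 48Q (0.301 and 0.200 CPM) and 11 and 3 for WT (0.574 and 0.133 CPM). In 12Q replicate 2 alone it was plainly expressed, and 12Q replicate 1 was the lowest of all 6 libraries. The ratio of the 12Q libraries was 460.5 (exact 95% interval 127 to 3810), and the ratio of 12Q replicate 1 to the WT libraries was 0.221 (0.0244 to 0.962), intervals that cover counting error only. With replicates this far apart, the log2 difference of 5.61 from WT had a 95% interval of 0.26 to 10.96 and did not pass (edgeR adjusted p = 0.117, against a DESeq2 adjusted p of 0.0377), nor did that of 6.07 from 48Q (0.67 to 11.47, edgeR adjusted p = 0.156, against a DESeq2 adjusted p of 0.0374). Without 12Q replicate 2 they turned to -2.16 and -1.69, and without 12Q replicate 1 both passed (edgeR adjusted p = 0.0125 and 0.0474). Between 48Q and WT the log2 difference was -0.46 (-5.68 to 4.75, edgeR adjusted p = 0.915).

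Adm (chromosome 7, 110627669 to 110629819, plus strand) encodes adrenomedullin, a secreted peptide that widens vessels and acts on endothelium. It was at 9.62 and 20.7 CPM in 12Q, 1.90 and 1.11 in 48Q, compared with 1.62 and 4.11 in WT. The 12Q libraries were the 2 highest of the 6, and the 48Q and WT libraries overlapped. The means were 15.1 ± 7.82, 1.505 ± 0.555 and 2.86 ± 1.76 CPM (SD, n = 2). Adm rose in 12Q against WT by 2.40 on the log2 scale (SE 0.66, 95% interval 0.79 to 4.002, edgeR adjusted p = 0.0471). This call sat at the threshold: it was lost without 12Q replicate 2 (3.36-fold, edgeR adjusted p = 0.161), without 48Q replicate 1 (0.077) or 2 (0.0766), without WT replicate 1 (0.131), in the fit of 12Q and WT alone (0.0769) and without WT replicate 2 (9.32-fold, 0.0559). Against 48Q the log2 difference was larger, 3.33 (SE 0.69, 1.66 to 4.996), and just missed (edgeR adjusted p = 0.053), although the DESeq2 Wald test called it. Over the fits without 1 library this difference ran from 2.69 to 3.81. Between 48Q and WT it was -0.93 (-2.50 to 0.64, edgeR adjusted p = 0.412).

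Vegfa (chromosome 17, 46016993 to 46032377, minus strand) encodes the main growth factor of blood vessels. It was at 115 and 241 CPM in 12Q, 76.8 and 114 in 48Q, compared with 118 and 113.5 in WT. Only 12Q replicate 2 left the range of WT upward, and 12Q replicate 1 was level with WT and with the higher 48Q library. None of its differences passed: 0.62 in 12Q against WT (95% interval -0.33 to 1.57, edgeR adjusted p = 0.289), -0.27 in 48Q against WT (-1.22 to 0.67, edgeR adjusted p = 0.701) and 0.90 in 12Q against 48Q (-0.06 to 1.85, edgeR adjusted p = 0.209). Without 12Q replicate 2 the first turned to -0.0078.

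Set against all genes, 4 of the 10 genes were called higher in 12Q against WT and 0 lower. DESeq2 called 5, these and Car9, and no DESeq2 share over all genes is given beside that count. Of the 15050 tested genes edgeR called 22.4%, 11.2% higher and 11.2% lower. The median log2 fold change of the 10 genes was 1.38, and that of all tested genes -0.0129. Both 12Q libraries lay above both WT libraries for 5 of the 10 (the 4 called genes and Egln1), beside 30.1% of all genes, and 0 of the 10 lay below, beside 30.4% (60.5% for either direction). For 48Q and WT, edgeR called 0 of the 10, with 1 at an unadjusted p under 0.05 (Egln1), and the DESeq2 Wald test called 0. The edgeR share over all genes there was 5.18%, with 3.95% higher and 1.23% lower. The 10 genes had a median of -0.285, and 5 did not overlap WT (64.5% of all genes): Egln3, Ankrd37 and Ddit4 lay above (34.7%) and Egln1 and Bnip3 below (29.8%). Egln3 and Ankrd37 were the 2 of the 10 with all 4 tumor libraries above both WT libraries, beside 20.6% of all genes, and for 0 of the 10 were all 4 below, beside 16.9%. Both comparisons share the WT libraries. Between the tumor groups, edgeR called 2 of the 10 higher in 12Q and 0 lower, where it called 4.17% of all genes, 1.01% higher and 3.16% lower. DESeq2 called 6 of the 10 (Egln1, Egln3, Car9, Ankrd37, Bnip3 and Adm), and over all genes it also called more than edgeR did there. The median of the 10 was 1.38, and 8 did not overlap (66.8% of all genes), with 7 above 48Q (31.3%) and 1, Epas1, below (35.5%). None of the 10 changed sign with another scaling in either comparison of 12Q, whereas library totals turned Hif1a, Egln1, Car9, Bnip3 and Vegfa upward in 48Q against WT.

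**Figure D2:**
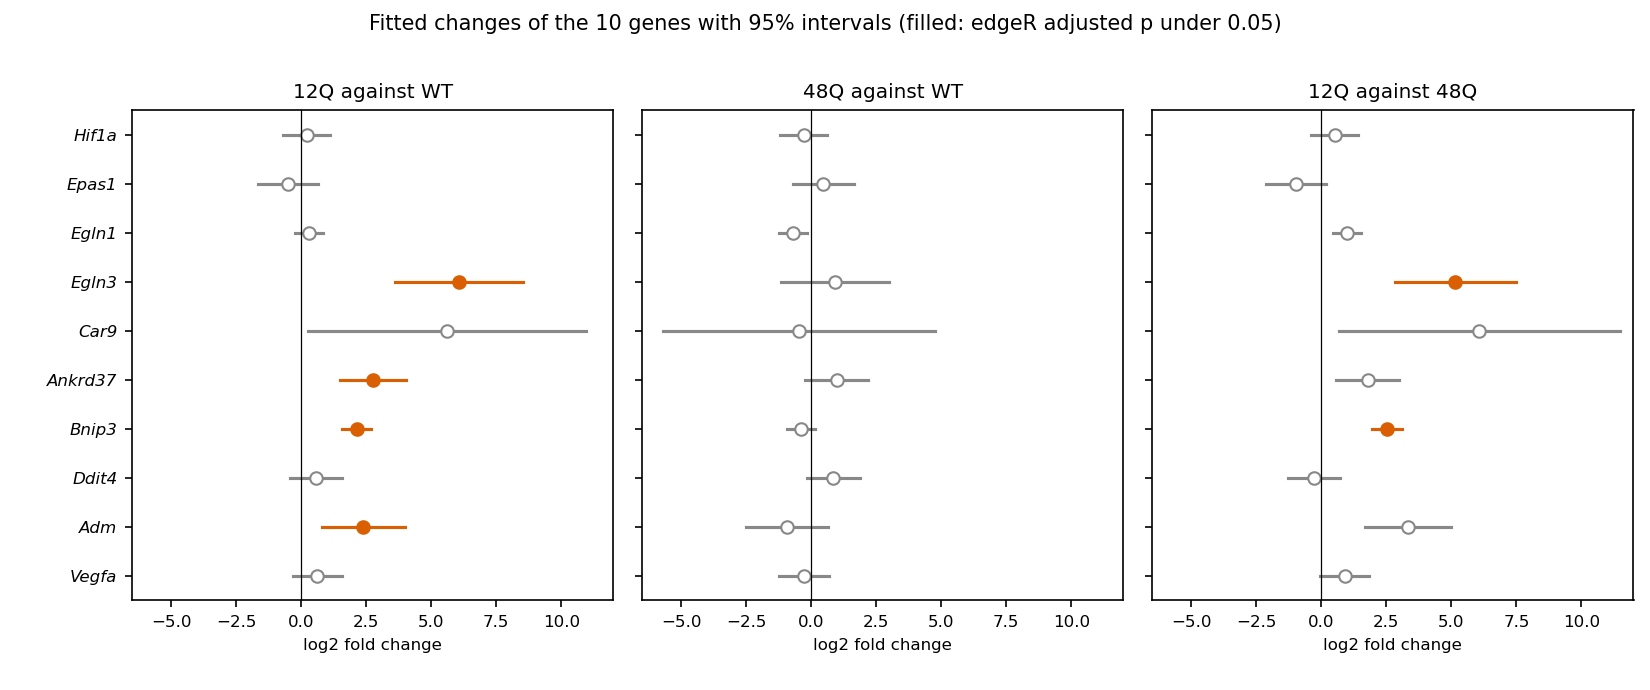
Fitted log2 fold changes of the 10 genes (points) with 95% intervals (lines) in 12Q against WT, 48Q against WT and 12Q against 48Q, filled where the edgeR adjusted p was under 0.05. Egln3, Ankrd37, Bnip3 and Adm are filled in the first panel, none in the second, and Egln3 and Bnip3 in the third, and the Car9 intervals are the widest.

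The 2 libraries of 12Q tumors differed in the levels of the 10 genes, a contrast looked at after the values were seen and given without a test. All 10 genes were higher in 12Q replicate 2 than in replicate 1, as were 49.4% of all tested genes. For 7 of the 10 (Egln1, Egln3, Car9, Ankrd37, Bnip3, Adm and Vegfa) it was the highest of all 6 libraries, as for 19.7% of all genes. Replicate 2 was over 2-fold above replicate 1 for Car9, Egln3 (7.82-fold, with a higher ratio than 99.1% of all genes), Adm (2.15-fold), Vegfa (2.11-fold) and Ddit4 (2.02-fold), 5 of the 10 genes beside 15.8% of all genes. The reverse held for 0 of the 10, beside 8.39% of all genes. Bnip3 (1.06-fold), Egln1 (1.24-fold), Epas1 (1.26-fold), Hif1a (1.30-fold) and Ankrd37 (1.44-fold) differed less. The same library stood apart in its epithelium: 6 prostate secretory genes summed to 803 CPM there, 16500 in 12Q replicate 1, 11000 and 14600 in 48Q and 69000 and 98700 in WT, with Spink1 and Msmb at 0 in it. Spink1 was also at 0 in all other libraries except 48Q replicate 2. Tgm4 made up most of these sums, at 14500 CPM in 12Q replicate 1 and 598 in replicate 2. Of the 5 tested secretory genes, 4 were over 2-fold higher in 12Q replicate 1 and 1, Pbsn, was higher in replicate 2. Pbsn was low in both 12Q libraries (3.33 and 5.14 CPM), beside 3950 and 2250 CPM in 48Q and 28200 and 16100 in WT. Sums of 6 luminal epithelial genes were nearly level in the 12Q libraries, at 9350 and 8710 CPM. Fibroblast genes were higher in replicate 2 than in replicate 1 (464 against 161 CPM over 8 genes), as were neutrophil genes (33.6 against 8.88 CPM over 6 genes). The part of these shifts in the higher hypoxia targets was not tested.

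Other cell types also differed between 12Q and WT beside the 4 called genes. Endothelial genes, which mark the main responders to Vegfa and Adm, summed to 279 and 312 CPM in 12Q, 139 and 143 in 48Q, compared with 78.4 and 109 in WT, and 6 of 10 were called higher and 1 lower in 12Q against WT. Smooth muscle genes summed to 56.6 and 56.5 CPM in 12Q, 921 and 332 in 48Q, compared with 2460 and 6280 in WT, with 10 of 10 called lower in 12Q and Myocd at 0 in 12Q replicate 2. Of 8 fibroblast genes 4 were called lower, with Dpt at 0 in both 12Q libraries. Of 6 basal epithelial genes 5 were called lower (median log2 fold change -7.84). The 6 summed to 544 and 754 CPM in 12Q and 905 and 604 in WT. Itga6 alone made up 542 and 749 CPM of the 12Q sums and 640 and 373 of the WT sums. The other 5 were at 3.9 CPM or less in both 12Q libraries and at 13.5 or more in WT. Macrophage genes summed to 298 and 463 CPM in 12Q, 524 and 538 in 48Q, compared with 126 and 97.1 in WT, and 6 of 8 were called higher in both tumor groups. Their sums in 48Q tumors were above those in 12Q tumors. The part of the other cell types in the changes of Egln3, Ankrd37, Bnip3 and Adm was not tested.

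The levels of the 10 genes were ordered per kb of exon, using the lengths in the deposited table. In WT prostate Hif1a was highest at 32.4 CPM per kb, followed by Egln1 at 27.4 and Vegfa at 26.5, and these 3 did not differ beyond their spread. Ddit4 (19.5), Bnip3 (11.8) and Epas1 (8.23) came next, and Adm (2.08), Ankrd37 (1.82), Egln3 (1.19) and Car9 (0.181) were lowest. In 48Q tumors the order began with Ddit4 (35.2 CPM per kb), Hif1a (26.4) and Vegfa (21.9), and the same 4 genes were lowest. The lead of Ddit4 came from 48Q replicate 1 (41.8 against 24.6 and 17.6), and in 48Q replicate 2 they were close (28.7, 28.2 and 26.2). By the 12Q mean, Egln3 stood first (79.9 ± 87.4 CPM per kb, SD, n = 2), followed by Bnip3 (52.0 ± 2.13), Vegfa (40.8 ± 20.6) and Hif1a (37.8 ± 6.89). The first place of Egln3 rested on replicate 2 alone: it was at 141.8 CPM per kb there and at 18.1, the sixth place, in replicate 1, where Bnip3 was first at 50.5. Vegfa lay above Bnip3 in replicate 2 (55.4 against 53.5) and below it in replicate 1 (26.3), so the order of these neighbours did not hold beyond their spread. By the 12Q mean Epas1 was the lowest of the 10, at 5.84 CPM per kb, but in replicate 1 Car9 lay far below it (0.038 against 5.17). With exon lengths from GENCODE M21, chosen after the data were seen, the mean over all libraries fell from 5.92 to 3.46 CPM per kb for Ankrd37 and from 24.2 to 18.7 for Bnip3, and in 12Q Bnip3 (40.1) then came after Vegfa (41.5).

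**Figure D3:**
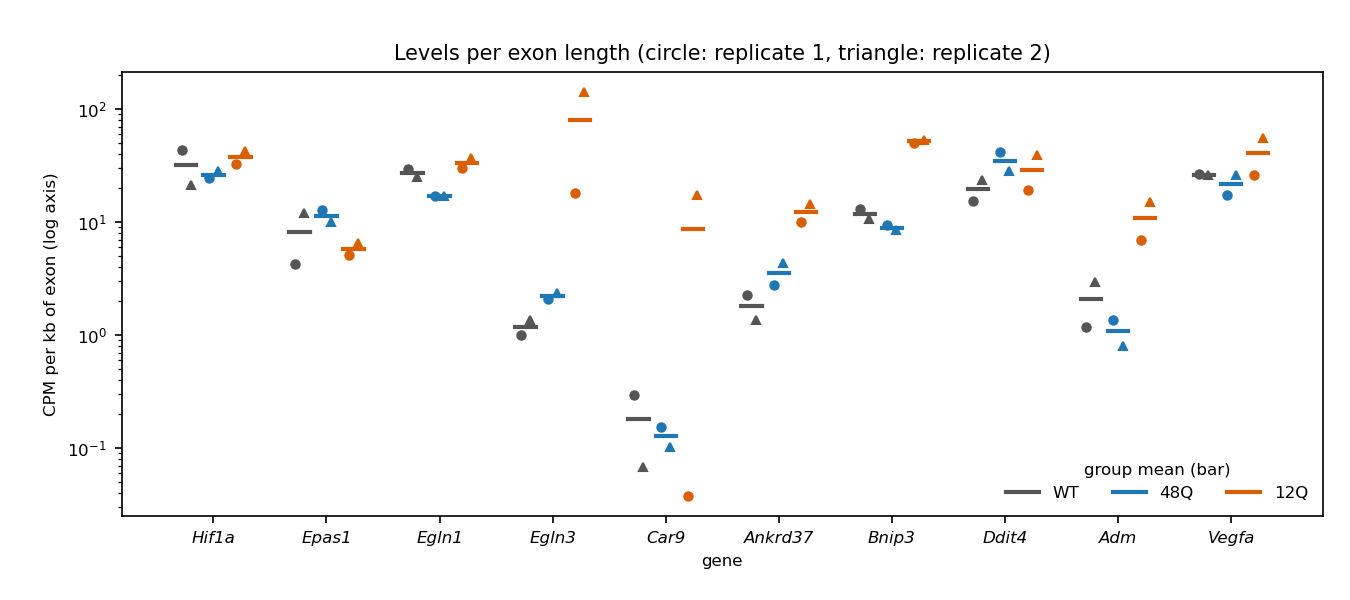
Levels of the 10 genes in CPM per kb of exon (log axis) in WT, 48Q and 12Q, with circles for replicate 1, triangles for replicate 2 and bars for the group mean. Hif1a, Egln1 and Vegfa lie close together in all groups, while Egln3 spans from 1.19 in WT to 79.9 in 12Q.

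Of 15 HIF partners and genes of the oxygen-sensing machinery, edgeR called 1 higher (Arnt2) and 1 lower (Hif3a) in 12Q against WT, 1 higher (Arnt2) in 48Q against WT, and 0 between the tumor groups, where 1 had an unadjusted p under 0.05 and DESeq2 called 1. Over all tested genes edgeR called 22.4%, 5.18% and 4.17% in the same order of comparisons. The edgeR counts of this list and of the lists below stand beside those shares. DESeq2 called 4 of the 15 in 12Q against WT, 1 higher and 3 lower, and 2 in 48Q against WT, 1 higher and 1 lower. The median log2 fold changes were 0.06, -0.20 and 0.07. Cited2, which competes with HIF for its coactivators, was at 63.2 and 63.1 CPM in 12Q and 217 and 91.9 in WT (-1.29, edgeR adjusted p = 0.075), and Siah2, a ubiquitin ligase that acts on the prolyl hydroxylases, at 6.59 and 10.1 against 38.2 and 16.7 (-1.72, edgeR adjusted p = 0.0605). Arnt2, a second HIF β subunit best known from brain, rose to 23.7 ± 3.28 CPM in 12Q and 15.5 ± 2.06 in 48Q from 0.701 ± 0.697 in WT (SD, n = 2; edgeR adjusted p = 0.00867 and 0.0305). The call in 48Q was lost without 48Q replicate 1 (edgeR adjusted p = 0.0681) or 2 (0.106) or WT replicate 1 (0.08), and its log2 fold changes of 5.04 in 12Q and 4.43 in 48Q became 4.31 and 3.69 without WT replicate 1 and 6.80 and 6.18 without WT replicate 2. Hif3a, whose products include inhibitors of HIF, held 2 counts in each 12Q library, 43 and 35 counts in the 48Q libraries and 8 and 64 in those of WT (edgeR adjusted p = 0.0358 in 12Q against WT), and of the 6 fits without 1 library it passed only without WT replicate 1 (edgeR adjusted p from 0.0215 to 0.137 over the 6). Vhl, Egln2, Hif1an and Arnt, picked for their place in the pathway, had log2 differences from WT in 12Q of 0.46, -0.14, -0.26 and 0.06, and none passed. Ep300, a HIF coactivator, differed between the tumor groups by 0.01 (edgeR adjusted p = 0.994), and its sign turned with library totals, with the replicate block and without 12Q replicate 2 or 48Q replicate 2.

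Other hypoxia targets outside glycolysis were called higher in 12Q against WT in 11 of 22 cases and lower in 1, with a median log2 fold change of 1.12. Over all tested genes 11.2% were called higher there and 11.2% lower. In 48Q against WT, 2 of the 22 were called higher (median 0.16), and in 12Q against 48Q 2 were called higher and 1 lower (median 0.99), with 12 at an unadjusted p under 0.05, 9 higher and 1 lower by DESeq2 and 5 higher and 1 lower in the fit of only the tumor libraries. Against WT, DESeq2 called 14 of the 22 in 12Q and 4 in 48Q. Bhlhe40, a hypoxia-induced transcriptional repressor, rose in 12Q to 107 and 167 CPM from 14.7 and 13.1 in WT (9.87-fold, edgeR adjusted p = 0.00339) and in 48Q to 39.4 and 34.8 (2.67-fold, edgeR adjusted p = 0.0446), the second call being lost without either 48Q library or either WT library (edgeR adjusted p from 0.0886 to 0.237). Fam162a, a mitochondrial hypoxia target, rose in 12Q over 48Q (91.5 and 87.7 against 30.4 and 31.7 CPM, edgeR adjusted p = 0.0246), and this call was lost without either 12Q or either 48Q library (0.0583 to 0.215). Lox, which cross-links collagen and is made by fibroblasts, went the other way: it fell in 12Q to 0.222 and 0.371 CPM from 8.45 and 6.06 in WT (23.9-fold, edgeR adjusted p = 0.00373) and stood at 24.8 and 26.2 CPM in 48Q, 3.52-fold above WT (edgeR adjusted p = 0.049, lost without either 48Q or either WT library, 0.0812 to 0.341). The difference of 12Q from 48Q was 84.1-fold (edgeR adjusted p = 0.00813) and held in all 6 fits without 1 library. Bhlhe40, Fam162a, Lox and Arnt2 each overlap exons of another gene. The count of 12 genes called in 12Q against WT fell to 6 without 12Q replicate 2, 48Q replicate 1, 48Q replicate 2 or WT replicate 1 and to 7 without WT replicate 2. The 2 called in 48Q became 0 with DESeq2 size factors and without 48Q replicate 1, 48Q replicate 2 or WT replicate 1, and without WT replicate 2 other genes were called, 0 higher and 2 lower. Also, the 3 called between the tumor groups became 1 without 12Q replicate 2 or either 48Q library and 6 without either WT library. 12Q replicate 2 was the highest library for 16 of the 22, beside 19.7% of all tested genes.

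Glycolytic hypoxia targets, listed for comparison, were called higher in 11 of 14 cases for 12Q over WT (median log2 fold change 1.95), in 1 of 14 for 48Q over WT (median -0.02) and in 9 of 14 for 12Q over 48Q (median 2.10), with 0 called lower in each. The shares of all tested genes called higher by edgeR were 11.2%, 3.95% and 1.01%. DESeq2 called 11, 2 and 12 of the 14. Slc16a3, a lactate exporter, rose in 12Q to 64.0 and 147 CPM from 0.522 and 0.575 in WT (190.5-fold, edgeR adjusted p = 0.0027) and was at 4.25 and 5.05 in 48Q (8.40-fold over WT, edgeR adjusted p = 0.0296). Pfkl, a phosphofructokinase subunit, rose in 12Q to 231 and 294 CPM from 28.1 and 31.6 in WT (8.79-fold, edgeR adjusted p = 0.0027), with 47.5 and 51.8 in 48Q. Leaving out 12Q replicate 2 lowered the log2 fold change of Slc16a3 over WT from 7.57 to 6.86 and that over 48Q from 4.50 to 3.79. Over 48Q, Slc16a3 was 22.7-fold and Pfkl 5.29-fold higher (both edgeR adjusted p = 0.0165), and the first call was lost without 48Q replicate 1 (0.0816) and the second without 48Q replicate 1 (0.111) or 2 (0.0667). The 9 calls between the tumor groups became 2 when 12Q replicate 2 was left out, 0 without 48Q replicate 1 and 1 without 48Q replicate 2, and the 12Q against WT count to 7 without WT replicate 1. The call of Slc16a3 in 48Q was lost without any 1 of the 48Q or WT libraries (edgeR adjusted p from 0.0659 to 0.149). Gapdh and Eno1, which have near-identical copies in the genome, are uncertain.

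**Figure D4:**
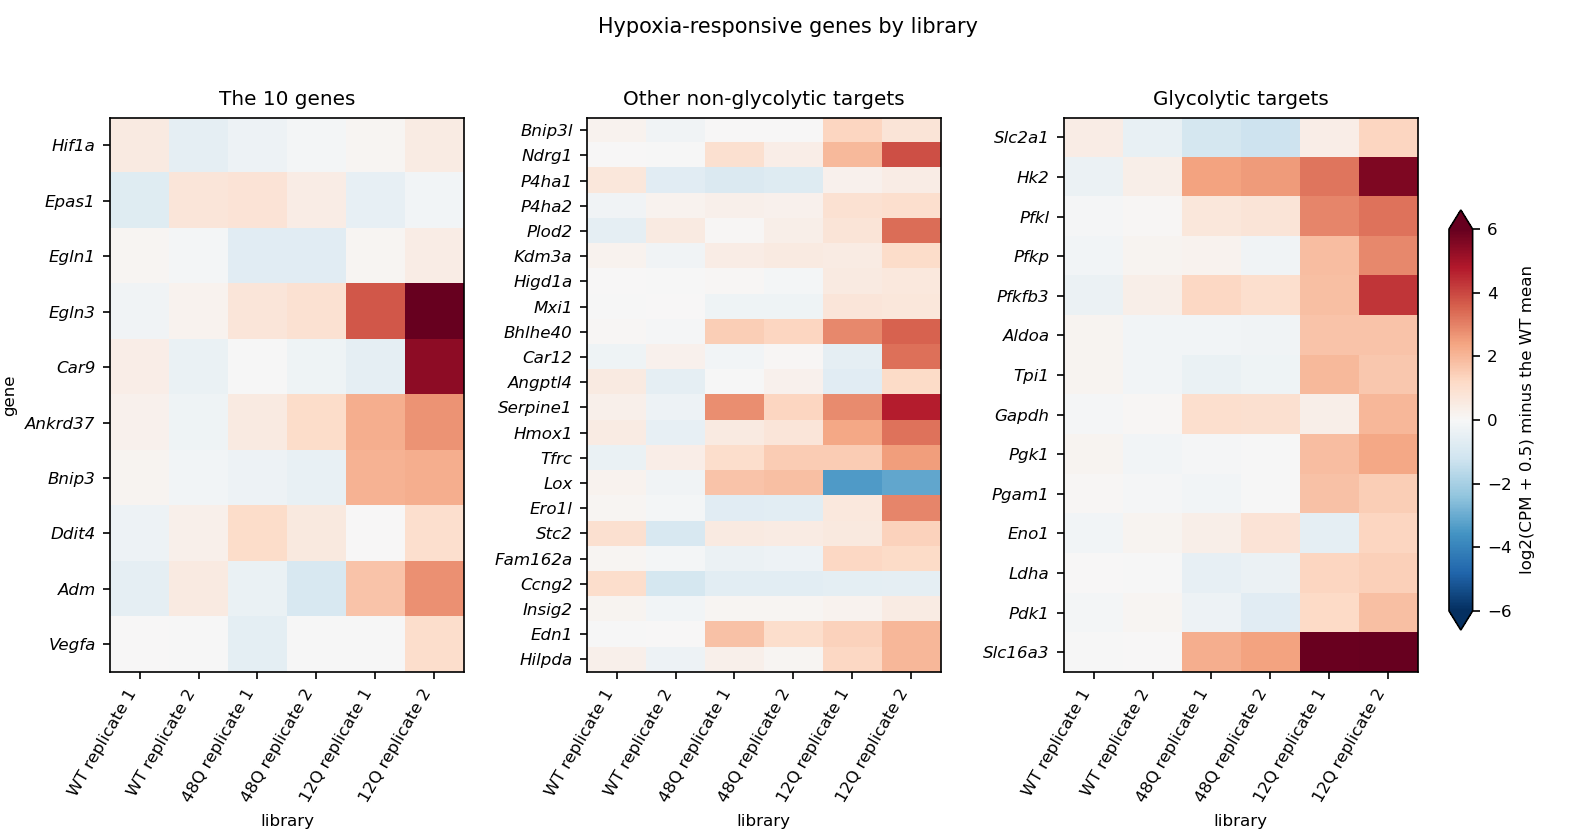
Colour shows log2(CPM + 0.5) minus the WT mean in each library (columns) for the 10 genes, 22 other non-glycolytic hypoxia targets and 14 glycolytic targets (rows), with the scale ending at -6 and 6. Most of the deep red cells lie in the 12Q columns, Lox is blue in 12Q, and Egln3 (6.70) and Slc16a3 (7.14) in 12Q replicate 2 lie beyond the scale.

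Calls among the relatives of Vegfa depended on the test. Of 9 other VEGF ligands and VEGF receptors, edgeR called 0 higher and 2 lower in 12Q against WT (Vegfb and Vegfd), although 7 had an unadjusted p under 0.05 and the median over the 9 was positive at 1.16. DESeq2 called 4 higher and 3 lower, library totals gave 2 higher and 1 lower, the replicate block 2 and 2, and the fit without WT replicate 2 gave 4 higher and 1 lower. For 48Q over WT edgeR called 0 of 9, with 2 at an unadjusted p under 0.05 and 2 called by DESeq2. Between the tumor groups edgeR called 1 lower (Vegfd) and DESeq2 called 3. Vegfd, a ligand of lymphatic vessels, gave 1 count in each 12Q library, 138 and 165 counts in the 48Q libraries and 46 and 82 in those of WT, and the ratio of 12Q to WT was 0.011 (exact 95% interval 0.00132 to 0.0406, counting error only). Its call against WT held in all 6 fits without 1 library, and that against 48Q was lost without any 1 of the 4 tumor libraries (edgeR adjusted p from 0.052 to 0.0803). Vegfb was at 16.9 and 14.8 CPM in 12Q, 18.3 and 14.1 in 48Q, compared with 36.2 and 38.6 in WT (2.36-fold lower in 12Q than in WT, edgeR adjusted p = 0.0246). This call was lost in most fits without 1 library, where the log2 fold change ran from -1.29 to -1.14, and was kept in some other alternatives. The receptor genes Flt1, Kdr and Flt4 were higher in both 12Q libraries than in WT by 2.23, 2.20 and 1.16 on the log2 scale, and none passed (edgeR adjusted p = 0.083, 0.0562 and 0.0943). Nrp1, a VEGF co-receptor, differed by 2.08 between 48Q and WT (edgeR adjusted p = 0.134).

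Of 8 tested genes of the adrenomedullin family and its receptors, 2 were called higher in 12Q against WT and 0 lower (median 0.35), by edgeR and by DESeq2. By edgeR, 0 were called for 48Q over WT and 0 between the tumor groups, where 4 and 2 had an unadjusted p under 0.05 and DESeq2 called 3 and 2. Ramp3, which shapes the adrenomedullin receptor, gave 45 and 61 counts for 12Q, 39 and 53 for 48Q and only 3 and 4 for WT (10.4-fold in 12Q over WT, edgeR adjusted p = 0.0162, lost without 48Q replicate 1, 0.0663, or 2, 0.0674). Pam, the enzyme that amidates adrenomedullin and other peptides, rose to 326.9 ± 103.4 CPM in 12Q from a mean of 94.3 in WT (SD, n = 2, edgeR adjusted p = 0.0293). That call was lost in most fits without 1 library, where the log2 fold change ran from 1.40 to 2.35, and was kept in some other alternatives. Pam did not pass in 48Q against WT (1.39, edgeR adjusted p = 0.103) or between the tumor groups (0.41, edgeR adjusted p = 0.547). Both genes overlap exons of another gene.

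Around the remaining targets the listed genes moved in both directions. Of 11 tested carbonic anhydrases other than Car9, 2 were called higher and 3 lower in 12Q against WT (median -0.78), and 1 higher in 48Q (median 0.31). Over all tested genes the shares were 11.2% higher and 11.2% lower in 12Q, and 3.95% higher in 48Q. DESeq2 called 4 higher and 3 lower in 12Q and 2 higher and 3 lower in 48Q. In 12Q against 48Q 0 were called by edgeR, 5 at an unadjusted p under 0.05 and 4 by DESeq2. Car13, a cytosolic form, rose to 39.5 and 44.5 CPM in 12Q and 18.9 and 12.0 in 48Q from 3.65 and 3.76 in WT (edgeR adjusted p = 0.00373 and 0.0296), and the call in 48Q was lost without any 1 of the 48Q or WT libraries (0.0613 to 0.165). Car5b, a mitochondrial form, fell to 1.85 ± 0.781 CPM in 12Q from 24.2 ± 4.56 in WT (SD, n = 2; 13.1-fold, edgeR adjusted p = 0.00575). Car2, another cytosolic form, differed between the tumor groups by 0.62 (edgeR adjusted p = 0.284).

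Of 13 mitophagy receptors and adaptors listed beside Bnip3, 2 were called higher and 1 lower in 12Q against WT (median 0.01), 1 higher in 48Q against WT (median -0.37) and 0 between the tumor groups, where 4 had an unadjusted p under 0.05 and DESeq2 called 3. The edgeR count in 12Q against WT was near the share over all tested genes, 22.4% in either direction. Against WT, DESeq2 called 3 higher and 2 lower in 12Q and 1 higher and 2 lower in 48Q. Optn, an autophagy adaptor, rose to 168.4 ± 11.4 CPM in 12Q and 137.6 in 48Q from 33.6 ± 2.58 in WT (SD, n = 2; edgeR adjusted p = 0.00353 and 0.0132), and Park2, a ubiquitin ligase of damaged mitochondria, fell to 0.777 and 0.248 CPM in 12Q from 10.4 and 9.24 (edgeR adjusted p = 0.0106). The Optn call in 48Q was lost without 48Q replicate 1 (0.0588), 48Q replicate 2 (0.0938) or WT replicate 1 (0.0828), and its exons overlap another gene. Without 12Q replicate 1 the log2 fold change of Park2 went from -4.27 to -5.24, and without 12Q replicate 2 to -3.65. Sqstm1, an autophagy adaptor, differed between the tumor groups by 0.62 (edgeR adjusted p = 0.372). Of 12 genes of mTORC1 and its stress inhibitors listed beside Ddit4, edgeR called 0 higher and 1 lower in each tumor group against WT (DESeq2 called 4 in 12Q and 1 in 48Q), and 0 in 12Q against 48Q by edgeR, by DESeq2 or at an unadjusted p under 0.05. The 1 was Deptor, an mTOR inhibitor, at 107 and 65.8 CPM in 12Q, 96.2 and 85.8 in 48Q, compared with 349 and 357 in WT (edgeR adjusted p = 0.00869 and 0.027), and it differed by -0.08 between the tumor groups (edgeR adjusted p = 0.884, with the sign turned without 12Q replicate 2 or 48Q replicate 1). Its call in 48Q was lost without any 1 of the 48Q or WT libraries (0.0538 to 0.208), and its exons overlap another gene.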

How the data were processed

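Per the labels' protocols, RNA-Bee was used to extract RNA and the Kapa RNA HyperPrep chemistry to build libraries. The authors deposited 1 table of raw counts (whole numbers per gene, not normalized) for the 6 libraries, with a gene length in kb. Per the submitters' processing notes, TopHat2 2.0.14, HTSeq 0.6.0 and mm10 were used. Annotation, strand setting and handling of reads with several positions: not given in the sources used here. GENCODE M21 held 23509 of the 24091 symbols, and 23446 lay over the gene so named. The number of columns that matched no sample was 0. The gene that bears the polyglutamine tract is not reported here.

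Groups and replicates came from the labels. Genes were kept by filterByExpr (minimum count 10, minimum total 15), scaled by TMM and tested in edgeR 4.0.16 under R 4.3.3 with the quasi-likelihood F test, in a single model of all libraries that left 3 residual degrees of freedom (common dispersion 0.143). Benjamini-Hochberg adjustment covered 15050 genes. Fold changes and 95% intervals are fitted values, and SDs are over the 2 CPM values of a group. The fits were tested on simulated data with known changes. Every replicate pair differed by more than sampling noise. The alternatives were other scalings (DESeq2 size factors, library totals), no filter, the DESeq2 1.42.0 Wald test, only the compared groups, a replicate block, leaving out each library, and other gene lengths. The same alternatives for pathway genes were added after seeing the data.

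The text names all 10 genes and, per pathway list and comparison, the 2 called genes with the smallest adjusted p, or, where none was called, the gene with the highest mean CPM, a rule for naming and not a comparison of levels. Cell type lists are given as sums and counts. Flt1, Kdr, Flt4, Vhl, Egln2, Hif1an, Arnt, Cited2, Siah2, Gapdh, Eno1, Itga6, Tgm4 and Pbsn were named after their values were seen. Of 214 list entries 211 matched a symbol. The 10 genes, the lists and the rules were chosen with earlier results of these data known.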

Additional observations from a re-analysis of the deposited data

Results flagged for a closer look

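Egln3 and Bnip3 differed between the tumor genotypes in their change from WT. The effect in 12Q minus that in 48Q was 5.16 on the log2 scale for Egln3 (6.06 against 0.90, edgeR adjusted p = 0.0437 for the difference) and 2.53 for Bnip3 (2.14 against -0.40, edgeR adjusted p = 0.0157). Both 12Q libraries lay above all 4 other libraries for both genes. For Egln3, 12Q replicate 2 was 7.82-fold above replicate 1, and without it the difference was 3.03 (edgeR adjusted p = 0.0489). For Bnip3 the 12Q libraries differed by 1.06-fold, and the difference without replicate 2 was 2.502 (edgeR adjusted p = 0.0433). Either call was lost without 48Q replicate 1 or replicate 2. The Egln3 call was also lost without either WT library, with library totals and in the fit of only the tumor libraries. It passed in 6 of 12 alternatives, and the Bnip3 call in 10 of 12. The WT term cancels in these differences, so they are those of 12Q against 48Q.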

How the results depend on the processing

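Over the 3 comparisons, 314 alternative values of the 10 genes kept direction and side of the threshold, 18 lost and 12 gained a call, and 16 changed sign. Genes called in 12Q against WT numbered 3370, and 1887 with only the 2 compared groups or 1861 to 2934 without 1 library (4 of the 10 genes, 1 to 5 without 1 library). In 48Q against WT they numbered 780, and 2004 with library totals, 2540 with the DESeq2 Wald test and 0 to 1215 without 1 library, the 0 being without WT replicate 1 (0 of the 10 throughout). In 12Q against 48Q they numbered 627, and 2481 with DESeq2 and 47 to 866 without 1 library, and 2 of the 10 became 1 with library totals, 6 with DESeq2 and 0 to 3 without 1 library. The split of higher to lower calls went from 1687 and 1683 to 3266 and 1032 with library totals in 12Q against WT, from 595 and 185 to 1921 and 83 in 48Q against WT, and from 152 and 475 to 62 and 379 in 12Q against 48Q.

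Signs turned when 1 library was left out, and the values then ranged, in 12Q against WT, from -0.21 (no WT replicate 2) to 0.836 for Hif1a, from -1.05 to 0.44 (no WT replicate 2) for Epas1, and, with the lowest value without 12Q replicate 2, from -2.16 to 6.97 for Car9, -0.011 to 1.05 for Ddit4 and -0.0078 to 1.11 for Vegfa. For 48Q and WT they ranged from -0.733 to 0.31 for Hif1a, -0.094 to 1.40 for Epas1 and -1.20 to 0.89 for Car9, all 3 turning without WT replicate 1. Library totals there turned Hif1a (0.43), Egln1 (0.011), Car9 (0.25), Bnip3 (0.30) and Vegfa (0.42). Between the tumor groups Car9 ranged from -1.69 (no 12Q replicate 2) to 7.10 and Ddit4 from -0.856 to 0.18, turning without 12Q replicate 1 or, at 0.028, 48Q replicate 1. Ep300 there (0.01) ranged from -0.49 to 0.41, was -0.063 without 48Q replicate 2, -0.16 with library totals and -0.082 with the replicate block, and Deptor (-0.08) from -0.438 to 0.24, with 0.012 without 48Q replicate 1. The cause was not tested.

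The labels do not say whether replicate numbers pair the libraries. Deviations of same-numbered libraries correlated at 0.0345 between 12Q and 48Q, 0.153 between 12Q and WT and -0.0853 between 48Q and WT. With only 2 libraries per group, these values do not settle whether the numbers mark pairs. A fit with the replicate number as a block changed no call of the 10 genes and called 3066, 854 and 605 genes. Hif3a was not tested in the fit of only the 2 compared groups. Every comparison rests on 2 libraries per group, and Car9, Vegfd, Hif3a, Ramp3, Lox, Slc16a3, Park2 and Arnt2 also had few counts in at least 1 library.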
